A study of Mus musculus with 3 samples.

Results

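The 32 genes described here encode the complexes that methylate lysine 4 of histone H3 (H3K4) and the enzymes that remove methyl groups from histone lysines. They were chosen by name, not by their values, though earlier results of these data were known. They comprise 15 genes of the H3K4 methylation complexes and 17 lysine demethylase genes, of 19938 genes with a probe set of their own. All 32 were found under their current symbols. A gene with several probe sets was represented by the brightest of them over the 3 arrays.

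Expression was measured on 3 Affymetrix arrays, each loaded with biotin-labelled total RNA product from thymocytes that carry CD4 and CD8 together (DP cells). The cells came from wild-type C57BL/6 mice aged 5 to 6 weeks, with 1 cohort of littermates per array, and were sorted on beads by CD8 and then CD4. There was 1 group, with no transgene, treatment or second condition, and the number of animals in a cohort and their sex are not given in the labels. The samples belong to a project that mapped H3K4 mono-, di- and trimethylation together with other marks in thymocytes, so the arrays show how far the genes of the H3K4 machinery were expressed and how stable their levels were between cohorts.

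H3K4 methylation marks promoters and enhancers. It is laid down by the COMPASS family of complexes, each built on 1 catalytic subunit (Kmt2a or Kmt2b in the MLL1/2 complexes, Kmt2c or Kmt2d in MLL3/4, Setd1a or Setd1b in SET1) around a shared core of Wdr5, Rbbp5, Ash2l and Dpy30. Further subunits tell the complexes apart: menin (Men1) belongs to MLL1/2, the CpG-binding protein Cxxc1 to SET1, Ncoa6 and Paxip1 to MLL3/4, and Hcfc1 to both MLL1/2 and SET1. Lysine demethylases fall into the flavin-dependent KDM1 enzymes and the iron-dependent Jumonji enzymes, whose families act on different residues. In DP thymocytes these enzymes work while the T cell receptor alpha locus is rearranged and the cells await selection.

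Markers of DP cells and of cells other than thymocytes were read first. No markers of other thymocyte stages were listed, so an admixture of such thymocytes was not examined. All 8 DP markers measured (Cd4, Cd8a, Cd8b1, Rag1, Rag2, Dntt, Ptcra and Cd3e) exceeded the background limit on every array, the limit being the 95th percentile over 102 organ-specific probe sets, of genes such as the albumin gene Alb of the liver (7.34, 7.46 and 7.38 on the log2 scale on arrays 1, 2 and 3). Markers of other cells were largely below it: 0 of 4 B cell, 0 of 5 thymic epithelial, 0 of 2 erythroid, 1 of 4 stromal and 1 of 7 myeloid and dendritic markers passed on all arrays. The summed linear signal of the myeloid and dendritic list was 1480, 764 and 1019 on arrays 1, 2 and 3, with Cd74 and H2-Ab1 (antigen presentation) as its brightest members, while Csf1r, Itgam, Itgax, Lyz2 and Adgre1 lay below the limit on every array. Array 1 stood somewhat apart. Pearson's r over 28939 probe sets was 0.993 between it and either other array and 0.996 between arrays 2 and 3. The immediate-early genes Fos (9.39, 7.86 and 8.27) and Jun (11.01, 9.65 and 9.56) were highest there. Of the 8 DP markers, 7 were lowest on array 1, where 39.3% of all genes were lowest. The exception was Cd3e, highest there with 12.29, 12.01 and 11.94 on arrays 1, 2 and 3. The summed linear signal of the 8 markers was 37044 on array 1, against 42600 and 42255 on arrays 2 and 3. Rag2, a subunit of the V(D)J recombinase, had 8.69, 9.51 and 9.54. These are bulk values, in which fewer cells expressing a gene and less RNA per cell cannot be told apart.

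All 32 genes were expressed. Each exceeded the background limit on all 3 arrays, as did 41.3% of all genes, and each also exceeded the 99th percentile of the organ-specific genes, which 34.7% of all genes did. The gene nearest the limit was Kdm8, with 8.23, 8.17 and 8.27 on arrays 1, 2 and 3, which cleared it by at least 0.71. The median of the 32 genes was 9.85 ± 0.06 (log2, mean ± SD over arrays, n = 3 here and below), against 6.85 ± 0.01 for all genes and 9.08 ± 0.01 for the genes that passed on every array. A value depends on probe affinity as well as on the transcript, so single genes are not ranked against each other.

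**Figure D1:**
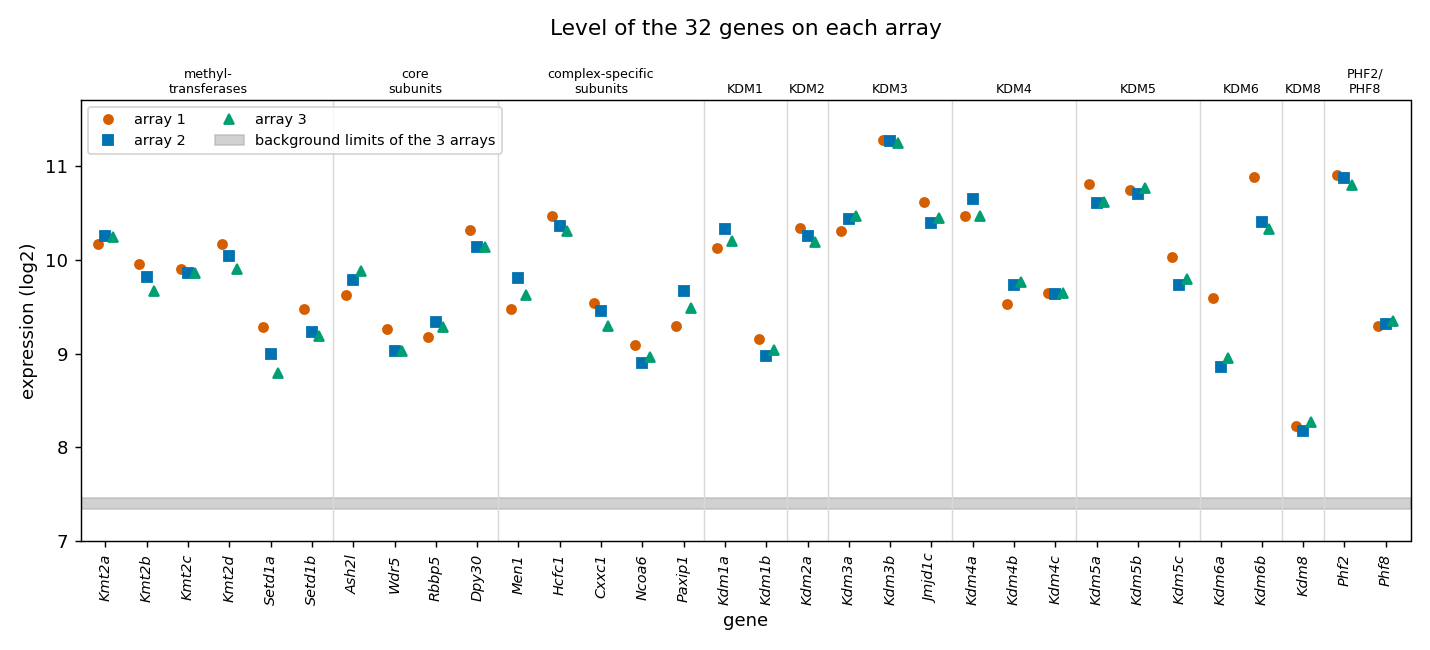
Log2 expression (vertical axis) of the 32 genes (horizontal axis, grouped by family) on arrays 1, 2 and 3, with 1 point per array. All points lie above the grey band that spans the background limits of the 3 arrays, 7.34 to 7.46, and the 3 points of most genes lie close together except for Kdm6a, Kdm6b and Setd1a.

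Demethylase genes had the higher median of the 2 sides. It was 10.31, 10.33 and 10.20 on arrays 1, 2 and 3 for the 17 demethylases, a mean of 10.28 ± 0.07, and 9.54, 9.78 and 9.62 for the 15 H3K4 methylation genes, a mean of 9.65 ± 0.12. The difference was 0.77, 0.55 and 0.58 log2 units on the 3 arrays, which share their probes. The gene-level ranges overlapped broadly, with means from 8.22 to 11.26 among the demethylases and from 8.98 to 10.38 among the methylation genes. No test was made of this difference, since the genes of a list are not replicates and each rests on its own probes.

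The 6 catalytic subunits were all present together. Kmt2a, which maintains Hox gene expression, had 10.17, 10.25 and 10.24 on arrays 1, 2 and 3, and its paralog Kmt2b had 9.95, 9.82 and 9.67. Kmt2c had 9.90, 9.86 and 9.86, and Kmt2d, which with Kmt2c methylates enhancers, had 10.17, 10.04 and 9.90. The values of Kmt2a and Kmt2c were nearly the same on every array, with SDs of 0.04 and 0.02, while Kmt2b and Kmt2d each had an SD of 0.14 and were lowest on array 3. The SET1 enzymes, responsible for most trimethylation at active promoters, had 9.28, 8.99 and 8.79 (Setd1a) and 9.47, 9.23 and 9.19 (Setd1b). Setd1a had the widest range of the methylation genes, 0.49 log2 units or 1.40-fold between arrays 1 and 3, although it did not pass the test for variation between arrays (limma variance test, adjusted p = 0.988).

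For Kmt2d and Setd1b a further probe set could be compared. That of Setd1b was dimmer but ordered the arrays in the same way, with 9.16, 8.96 and 8.70. That of Kmt2d, with 8.92, 8.96 and 9.07, was lowest on array 1 and highest on array 3, the opposite of the brighter one. The array-to-array pattern of Kmt2d therefore differed between its probe sets.

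The shared core was measured by 4 genes. Wdr5, the WD-repeat scaffold that holds the catalytic subunit, had 9.26, 9.03 and 9.03 on arrays 1, 2 and 3. Rbbp5 had 9.18, 9.34 and 9.28 and Ash2l, with which it stimulates the catalytic domain, had 9.62, 9.78 and 9.88. Dpy30, the small subunit that docks on Ash2l, had 10.32, 10.13 and 10.14. The core did not move as a block: Wdr5 and Dpy30 were highest on array 1, whereas Rbbp5 and Ash2l were lowest there. The SDs of the 4 genes ran from 0.08 to 0.13, against a median SD of 0.111 for all genes and 0.0929 for genes above background.

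The subunits that tell the complexes apart split in the same manner. Men1, the menin gene of MLL1/2, had 9.47, 9.80 and 9.62, and Paxip1, which joins MLL3/4 and also acts in DNA repair, had 9.29, 9.67 and 9.48. Both were lowest on array 1 and highest on array 2, with ranges of 0.33 and 0.38 log2 units. Ncoa6, a nuclear receptor coactivator in MLL3/4, had 9.09, 8.90 and 8.96. Cxxc1, which recruits SET1 to unmethylated CpG, had 9.54, 9.45 and 9.29, and Hcfc1, a host cell factor shared by SET1 and MLL1/2, had 10.46, 10.36 and 10.31. These 3 were highest on array 1.

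Taken by complex, without the shared core, the medians were 10.02 ± 0.05 for the MLL1/2 genes (Kmt2a, Kmt2b, Men1 and Hcfc1), 9.68 ± 0.09 for the MLL3/4 genes (Kmt2c, Kmt2d, Ncoa6 and Paxip1) and 9.36 ± 0.13 for the SET1 genes (Setd1a, Setd1b, Cxxc1 and Hcfc1). These medians cover only the genes named, and Kdm6a, also a subunit of MLL3/4, is counted among the demethylases instead. The same probes sit on every array, so that a like order on the 3 arrays carries no weight, and the complexes are not ranked. Without Hcfc1, which is counted in 2 complexes, the medians were 9.81 ± 0.14 for MLL1/2 and 9.30 ± 0.15 for SET1, and on array 3 MLL1/2 and MLL3/4 were then level at 9.67. With the mean of a gene's probe sets in place of the brightest, an alternative chosen after the values were seen, the median was 9.49 ± 0.08 for MLL3/4 and 9.27 ± 0.16 for SET1. On array 1 these 2 complexes then had 9.42 and 9.43, the reverse of their order with the brightest probe sets, 9.59 and 9.50.

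All 4 SET1 genes named above were highest on array 1 and lowest on array 3. That order was found in 10 of the 32 genes (31.2%) and in 16.3% of all genes. The other 6 were Kmt2b, Kmt2d, Kdm2a, Kdm3b, Kdm6b and Phf2. The list was read from the values after they were seen, and the brighter Kmt2d probe set is contradicted by its dimmer one, so the count is a description only. More broadly, 19 of the 32 genes had their highest value on array 1 alone, against 34.5% of all genes and 38.6% of genes above background. Among the H3K4 methylation genes it was 10 of 15 and among the demethylases 9 of 17. The mean departure of the 32 genes from their own 3-array means was 0.06, -0.01 and -0.04 log2 units on arrays 1, 2 and 3, so the shift was small.

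**Figure D2:**
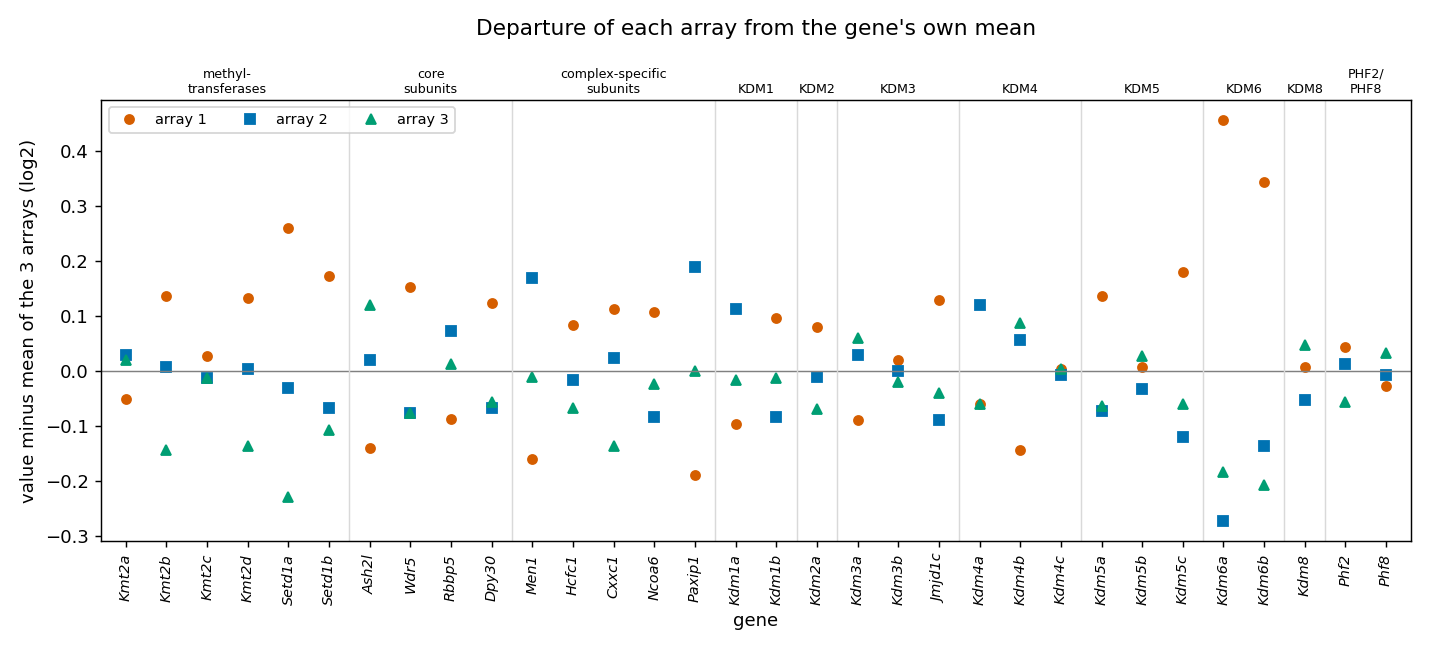
Value on each array minus the gene's own mean over the 3 arrays (vertical axis, log2 units) for the 32 genes (horizontal axis, grouped by family), with 1 point per array. Both KDM6 genes stand highest on array 1, and the 4 SET1 genes (Setd1a, Setd1b, Cxxc1, Hcfc1) have array 1 on top and array 3 at the bottom.

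Removal of H3K4 methylation was represented by 5 genes of the KDM1 and KDM5 families, with a median of 10.22 ± 0.11. Kdm1a (LSD1), the flavin-dependent enzyme of the CoREST complex that removes mono- and dimethylation, had 10.12, 10.33 and 10.20 on arrays 1, 2 and 3. Its relative Kdm1b, best known from the oocyte, had 9.15, 8.97 and 9.04. The KDM5 enzymes remove trimethylation. Kdm5a had 10.81, 10.60 and 10.61, Kdm5b had 10.74, 10.70 and 10.76, and the X-linked Kdm5c had 10.03, 9.73 and 9.79. Kdm5b was nearly flat (SD 0.03), while Kdm5a and Kdm5c were highest on array 1, by 1.16-fold and 1.23-fold over the lowest array.

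Among the genes listed, demethylases of H3K9 and H3K36 had the smallest median SDs by substrate, 0.0653 over 8 genes and 0.0897 over 4. The median SD was 0.106 over the 5 of H3K4 and 0.349 over the 2 of H3K27. The KDM4 genes are counted under both H3K9 and H3K36. Kdm2b, the paralog of Kdm2a, is not among the 32 genes and had an SD of 0.27, so this order depends on which genes are listed. Kdm3a and Kdm3b, which act on H3K9, had 10.31, 10.43 and 10.46, and 11.28, 11.26 and 11.24, and their relative Jmjd1c, whose own activity is less settled, had 10.61, 10.39 and 10.44. The dimmer probe set of Jmjd1c had 8.97, 8.92 and 8.89, also highest on array 1. The KDM4 enzymes act on H3K9 and H3K36: Kdm4a had 10.47, 10.65 and 10.47, Kdm4b had 9.53, 9.73 and 9.76, and Kdm4c had 9.64, 9.63 and 9.64. Kdm4c had the smallest SD of the 32 genes (0.00577), within the rounding of the values to 2 decimals. None of the KDM4 genes was highest on array 1 alone.

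Of the other Jumonji genes, Kdm2a, Phf2 and Phf8 had SDs of 0.08, 0.05 and 0.03, while the KDM6 genes are described below. Kdm2a, an H3K36 demethylase that binds CpG-rich DNA, had 10.34, 10.25 and 10.19. Phf2 and Phf8, PHD-finger proteins that bind trimethylated H3K4 and act on H3K9, had 10.90, 10.87 and 10.80, and 9.29, 9.31 and 9.35. Over the 5 genes assigned to H3K9 alone (Kdm3a, Kdm3b, Jmjd1c, Phf2 and Phf8) the median SD was 0.0513. It was 0.131 over the 15 methylation genes, 0.0907 over all demethylases and 0.0929 over genes above background. The order of demethylases and methylation genes depended on the arrays used. Without array 1 both had 0.0424. Without array 2 the demethylases had 0.0778 against 0.134, and without array 3 they had 0.127 against 0.113.

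Of the 32 genes, only the 2 H3K27 demethylases departed by 1.3-fold or more on 1 array from each of the others. Kdm6a (UTX), an X-linked enzyme that is also a subunit of MLL3/4, had 9.59, 8.86 and 8.95 on arrays 1, 2 and 3. Its signal on array 1 was 1.66 times that of array 2 and 1.56 times that of array 3, while arrays 2 and 3 were 0.09 log2 units apart. Kdm6b (JMJD3), which is induced by inflammatory and other stimuli in many cells, had 10.88, 10.40 and 10.33, so that array 1 had 1.39 times the signal of array 2 and 1.46 times that of array 3. Array 1 exceeded each other array 1.3-fold for 3.15% of all genes and for 3.51% of genes above background, against 2 of 32 here. At 1.5-fold it was 1% of all genes, and 1 of 32 here, Kdm6a. No gene of the 32 was as much lower on array 1, where 2.27% of all genes were. None of them stood 1.3-fold above or below on array 2, against 0.948% and 0.772% of all genes, or on array 3, against 0.542% and 0.722%. Both fold limits were chosen after the values were seen, and 1 array against 2 allows no test of the difference.

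Across arrays, the test was whether a probe set varied more than others of its level (limma, variance over the 3 arrays set against a robust prior that follows the mean, adjusted over 28939 probe sets by the Benjamini-Hochberg method). None of the 32 genes passed, and 0.0207% of probe sets did. Kdm6a and Kdm6b were the 2 with an unadjusted limma p under 0.05, as were 4.66% of all probe sets, and each had an adjusted p of 0.988. The count of 0 held in each alternative run, among them other priors, with 0 to 2 genes at an unadjusted p under 0.05. The test covers 3 arrays, and a gene that misses the threshold is not shown to be constant. Fos and Jun, 1.33 and 1.4 log2 units higher on array 1 than the mean of the others, did not pass either (limma, adjusted p = 0.436 and 0.416). The widest ranges over the arrays, of 0.3 log2 units or more, were those of Setd1a, Men1, Paxip1, Kdm5c, Kdm6a and Kdm6b. The median SD was 0.106 over the 32 genes, 0.111 over all genes and 0.0929 over genes above background. Without array 1 it was 0.0424, 0.0707 and 0.0495, and each of the 32 genes then differed by at most 0.20 log2 units between the arrays.

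**Figure D3:**
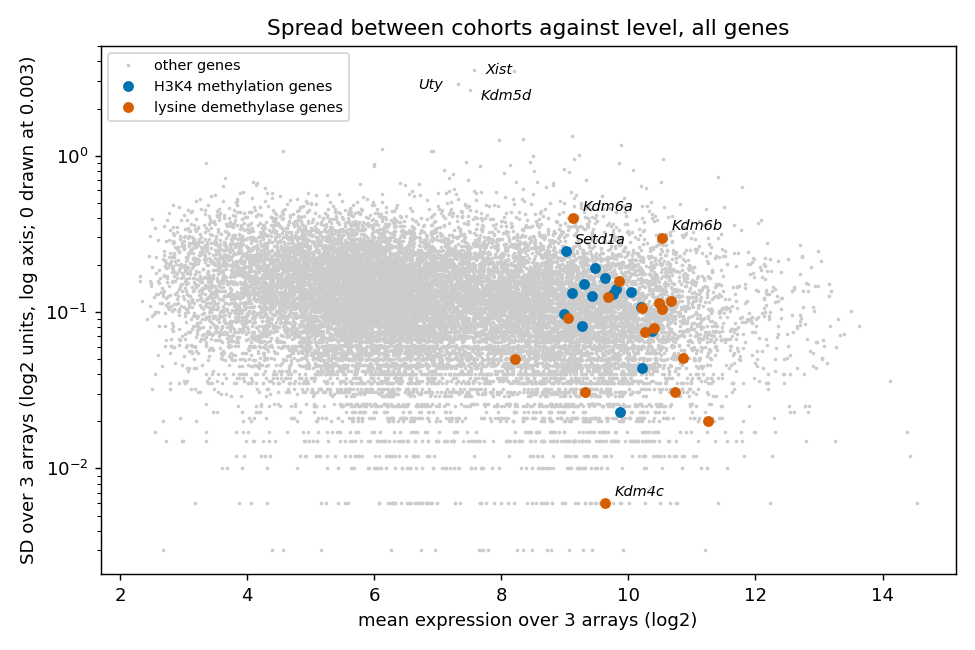
SD over the 3 arrays (vertical axis, log scale, in log2 units, with an SD of 0 drawn at 0.003) against mean log2 expression (horizontal axis), with 1 point per gene for 19938 genes and the 32 genes coloured by side. The coloured points lie within the cloud of other genes of their level, from Kdm4c at 0.00577 to Kdm6a at 0.398, while Xist and the Y-linked Uty and Kdm5d lie far above it.

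Other genes were high on array 1 together with these demethylases. Kdm6a and Kdm6b both had the direction of Fos and Jun, whose signal on array 1 was 2.89 and 2.57 times that of array 2. Both also had the direction of Xist and of the myeloid and dendritic marker sum, and the opposite direction to the DP marker sum. The brightest of the myeloid and dendritic markers were Cd74 and H2-Ab1, and 5 of the 7 lay below background on every array. All these differences lie on array 1, so they cannot be told apart, and their part in the Kdm6b or Kdm6a values was not tested. Xist, the RNA that coats the inactive X chromosome, had 11.65, 5.40 and 5.68 on arrays 1, 2 and 3.

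The Y-linked paralogs of 2 of the genes were the reverse of Xist. Kdm5d, the Y copy of Kdm5c, had 4.46, 9.10 and 8.97, and Uty, the Y copy of Kdm6a with little demethylase activity, had 4.00, 8.96 and 8.98. Both lay below the background limit on array 1 and above it on arrays 2 and 3. Against the limit of array 1, Kdm5d had at least 3.38 times the signal on array 2 and at least 3.08 times on array 3, and Uty at least 3.06 and 3.11 times. They were 2 of the probe sets that passed the variance test (limma, adjusted p = 0.0209 for Kdm5d and 0.019 for Uty). Arrays 2 and 3 therefore carried signal for both copies of each pair, and array 1 for the X copies only.

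The 4 X-linked genes among the 32 did not share a size of departure. Kdm6a was 0.69 log2 units higher on array 1 than the mean of the other arrays and Kdm5c 0.27, both genes known to escape X inactivation in the mouse. Hcfc1 was 0.12 higher and Phf8 0.04 lower (-0.04). Among 6 other X-linked genes listed as candidates for escape, Eif2s3x, a translation initiation factor subunit, differed by 0.54 (11.20, 10.69 and 10.63), and Pbdc1, Usp9x and Ddx3x by 0.20, 0.13 and 0.03. Utp14a (-0.06) and Mid1 (-0.14), the latter below background on every array, did not share the direction. Xist exceeded the background limit on array 1 alone, and Kdm5d, Uty and Eif2s3y lay below it on array 1 alone. This is the pattern of female cells on array 1 and of male cells on the other arrays, although the labels give no sex. Every contrast of array 1 with the others is therefore also a contrast of sex. The part of sex in the Kdm6a and Kdm5c values was not tested.

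**Figure D4:**
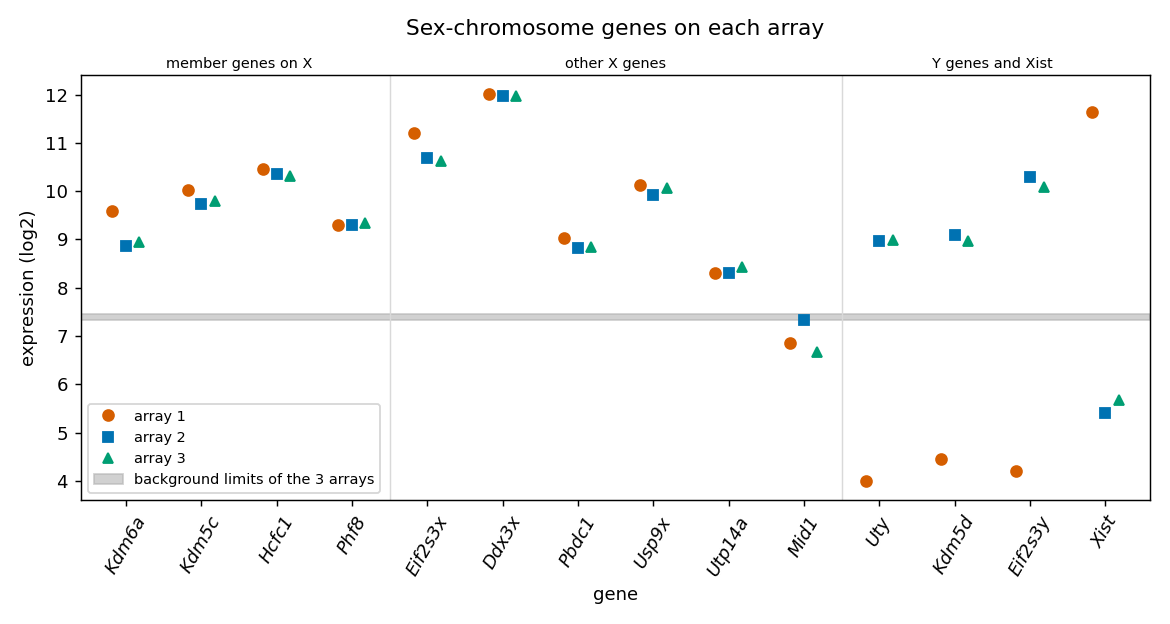
Log2 expression (vertical axis) of the 4 X-linked genes of the 32, 6 other X-linked genes, 3 Y-linked genes and Xist (horizontal axis) on arrays 1, 2 and 3, with 1 point per array and a grey band for the background limits. Uty, Kdm5d and Eif2s3y lie below the band on array 1 alone, Xist lies above it on array 1 alone, and Kdm6a, Kdm5c and Eif2s3x are highest on array 1.

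The upstream sequences of these X and Y pairs are shown because the Y copies passed the variance test and the X copies did not. Each is the 250 bases before an annotated transcript start in RefSeq, GRCm38.p6, read 5′ to 3′ on the gene's strand, with CpG pairs in capitals. The window of Kdm6a is chrX:18162325-18162574 (plus strand), that of Uty chrY:1245760-1246009 (minus), that of Kdm5c chrX:152232977-152233226 (plus) and that of Kdm5d chrY:897538-897787 (plus).
Kdm6a: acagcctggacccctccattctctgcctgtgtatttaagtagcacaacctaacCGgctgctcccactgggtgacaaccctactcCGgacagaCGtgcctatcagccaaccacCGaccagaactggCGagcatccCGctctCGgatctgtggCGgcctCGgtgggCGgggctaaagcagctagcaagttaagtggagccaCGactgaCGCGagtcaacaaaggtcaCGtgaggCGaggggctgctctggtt
Uty: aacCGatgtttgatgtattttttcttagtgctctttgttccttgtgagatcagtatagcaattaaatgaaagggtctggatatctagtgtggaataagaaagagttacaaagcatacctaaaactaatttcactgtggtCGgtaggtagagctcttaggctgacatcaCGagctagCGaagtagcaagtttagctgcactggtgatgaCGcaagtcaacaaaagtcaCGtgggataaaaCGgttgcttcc
Kdm5c: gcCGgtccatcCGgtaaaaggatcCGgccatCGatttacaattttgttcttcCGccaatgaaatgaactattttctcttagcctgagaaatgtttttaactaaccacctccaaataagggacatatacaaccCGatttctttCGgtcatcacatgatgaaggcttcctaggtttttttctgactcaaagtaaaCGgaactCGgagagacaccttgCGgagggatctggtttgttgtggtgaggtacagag
Kdm5d: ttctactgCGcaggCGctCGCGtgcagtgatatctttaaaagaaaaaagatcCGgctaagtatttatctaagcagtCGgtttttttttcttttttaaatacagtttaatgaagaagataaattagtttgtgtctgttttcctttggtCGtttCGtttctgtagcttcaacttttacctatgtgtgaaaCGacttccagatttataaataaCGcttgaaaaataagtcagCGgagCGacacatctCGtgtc
The Kdm6a window holds 15 CpG pairs and that of Uty 7, against 10 for Kdm5c and 13 for Kdm5d. The longest run of identical bases between the windows of Kdm6a and Uty is agtcaacaaa, 10 bases that begin 40 bases before the start of Kdm6a and 38 before that of Uty. Kdm5c and Kdm5d share at most 9 bases in a row, a stretch mostly of t at unlike distances, and the crossed pairs 7 and 8.

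CpG pairs are of interest for this gene group because Cxxc1, Kmt2a, Kmt2b and Kdm2a bind unmethylated CpG through CXXC domains. The RefSeq promoter table held 32 windows of 23 of the 32 genes. Their median was 19 CpG pairs in 250 bases, against 6 in all 32851 windows, and 78.1% of them had at least 10, against 37.8% of all windows. All 32 genes were above background on every array, as were 41.3% of all genes. Windows of expressed genes alone were not compared, so the CpG content is not shown to be particular to this group. The letters TGTGGT or ACCACA, the core bound by RUNX proteins, were found on either strand in 3 of the 32 windows (Hcfc1, Kdm5c and Wdr5), or 9.38%, against 14% of all windows. CAGCTG, an E-box that is its own reverse complement, was in 4 (Kdm1b, Kdm4c, Paxip1 and Setd1a), or 12.5%, against 13%. The ETS sequence CCGGAAGT or its complement ACTTCCGG was in 0, against 2.88%. These are matches of letters in these windows, and several genes have more than 1 window.

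The wider machinery was also largely expressed. Of 46 partner, reader and related enzyme genes listed, 45 were measured and 39 lay above background on all arrays, with a median of 9.12 ± 0.03. The exceptions below the limit on every array were Smyd1 (6.94, 7.35 and 7.10), a muscle methyltransferase, Prdm9 (6.32, 6.58 and 6.63), the H3K4 methyltransferase of meiosis, Kdm4d (5.65, 5.90 and 5.72), a demethylase known from testis, and Hr (6.56, 6.67 and 6.71), a Jumonji gene of hair follicles. These 4 are genes with known roles in other tissues. Smyd2 (7.76, 7.42 and 7.53) and Rcor3 (7.31, 7.59 and 7.62), a CoREST subunit, each passed on 2 arrays. The largest SDs of this list belonged to Kdm2b, the paralog of Kdm2a and a subunit of a Polycomb complex, with 9.52, 9.09 and 9.01, to Ing2, a reader of trimethylated H3K4, with 8.47, 8.03 and 7.98, and to Smyd1. Kdm2b and Ing2 were highest on array 1, each 0.47 log2 units above the mean of the others. Both passed the 1.3-fold limit there, as Kdm6a and Kdm6b did. Their signal on array 1 was 1.35 (Kdm2b) and 1.36 (Ing2) times that of array 2, and 1.42 and 1.40 times that of array 3. None of the 45 passed the variance test (limma, adjusted p from 0.988). In this list 16 of 45 genes (35.6%) were highest on array 1 alone, close to the 34.5% of all genes. There 24 were lowest (53.3%), against 39.3% of all genes. Among the 32 genes it was 19 and 9, and the difference between the lists was not tested.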

How the data were processed

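Expression was measured on 3 arrays of DP thymocytes, 1 per littermate cohort. Each array has 1 log2 value per probe set, as deposited by the authors with 2 decimals. The log2 scale was read from the range of the values, 1.6 to 14.94. Per the submitters' processing notes the R package affy was used. For version, settings and build the labels give nothing. Once sorted, the values differ by no more than 0.15 between arrays, so a cohort with more RNA per cell overall would not show. Per the labels' protocols, cells were fixed in formaldehyde before the sort. Whether this applied to the RNA samples is not stated there.

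Of 35556 probe sets, 21789 have 1 gene symbol in the platform's table, 1621 several and 12146 none. Only the first were named. The 6617 numbered below the first named one were left out of the variance test as the control block. The background limit rests on 100 organ-specific genes, and about 5% of such genes exceed it by construction. The variance test used limma 3.58.1 in R 4.3.3 and was tested on simulated data. Python 3.11.15 (pandas 2.3.3, numpy 2.4.6) was used otherwise. RefSeq tables (GRCm38.p6) supplied promoter sequences. The text names all 32 genes, their Y-linked paralogs, Xist, Fos, Jun, the X-linked list, the marker lists, and partner genes below background or with the 3 largest SDs. The genes and lists were chosen with earlier results of these data known. Alternatives were quantile normalization, median centring, other background limits, the mean of a gene's probe sets, other variance priors and leaving out each array. No test between conditions exists with 1 group.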

Additional observations from a re-analysis of the deposited data

How the results depend on the processing

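No paired analysis was possible because there is 1 group of samples. The count of 32 genes above background, with 15 methylation and 17 demethylase genes, was the same under each alternative run, namely both scalings, both other limits, the mean of a gene's probe sets and each array left out. The median of the demethylase genes was 10.19 with the mean of all probe sets of a gene in place of the brightest, against 10.28, because Jmjd1c then fell from 10.48 to 9.70. Leaving out 1 array gave medians of 10.25 to 10.32 for the demethylases and 9.58 to 9.70 for the methylation genes. The count past the limma variance test stayed at 0 in all 8 alternatives. With the mean of probe sets 3 of the 32 levels (Kmt2d, Setd1b and Jmjd1c) changed by more than their SD, and 0 did under the other alternatives. The departure of Kdm6a on array 1 was 0.64 to 0.73 log2 units over its alternatives. Alternatives chosen after seeing the data gave 18 to 22 genes highest on array 1, against 19, and 2 genes at least 1.3-fold higher there (3 without array 2, with Setd1a added), against 2. Precision is limited by having 3 arrays, and with 1 array against 2 no departure of array 1 has a replicate. By its Xist and Y-linked transcripts, array 1 also differs from the others in sex.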
